A study of Mus musculus with 6 samples.

Results

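Constant 5hmC regions in gene deserts are short stretches of the mouse genome that were called as enriched for 5-hydroxymethylcytosine (5hmC) in every library of the study, with and without Tet2, and that lie far from any protein-coding gene. Peaks of the 4 deposited lists were pooled and merged wherever they shared 1 bp or more. Kept were autosomal regions called in all 4 lists, under 2500 bp wide, with a midpoint outside every RefSeq protein-coding gene and over 100 kb from the nearest gene end. Of 171780 merged autosomal regions, 68363 were called in all lists, 66498 of these were under 2500 bp wide, and 14172 met the whole rule. The regions were chosen by measured values, the calls in each library and the merged width, so presence in every library is no finding here.

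The study mapped 5hmC by immunoprecipitation with a polyclonal antibody and sequencing (5hmC-DIP-seq) in C57BL/6 bone marrow cells enriched for Kit, the receptor of stem cell factor. KO cells (Tet2-/-, 2 libraries) came from cultures given 200 nM 4-OHT, the active form of tamoxifen, and flox cells (Tet2fl/fl, 2 libraries) from cultures given the solvent ethanol, each for 4 days. All cells carried floxed Tet2 alleles, a CreER recombinase and a retrovirus for AML1-ETO, the leukaemia fusion of the transcription factor RUNX1 (AML1) with ETO. They were grown with stem cell factor and interleukins, sorted as immature myeloid cells by GFP and surface markers, and profiled at passage 5. Only KO cultures received the drug, so drug, active Cre and loss of Tet2 cannot be told apart. The labels do not name the promoter that drives CreER, nor whether the replicates began as independent cultures, and p-values then measure only the spread between these libraries, which may be technical. Peak lists hold no transcript levels, so markers of the sorted cells were not analysed here. The lists held 116539 and 122101 peaks in KO replicates 1 and 2, and 118727 and 118522 in flox replicates 1 and 2. The read depth behind them is unknown.

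TET enzymes oxidise 5-methylcytosine to 5hmC, mostly where a C is followed by a G (CpG), and 5hmC is known from enhancers and gene bodies. A gene desert is a long stretch without protein-coding genes. Such stretches often flank genes of developmental regulators, and some hold enhancers that act over long distances, for instance those that drive Myc in blood cells.

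No genome sequence was at hand for the regions themselves, so sequence is shown where RefSeq lists the start of a long non-coding RNA (lncRNA) or a microRNA inside a region. RefSeq (GRCm38.p6) gives 2016 transcript starts in deserts, all of lncRNAs, and 116 of these (5.75%) lay inside a constant desert region. By length, such regions cover 2.70% of desert sequence. The windows printed run from 250 bases before to 50 bases after a start, on the transcript's strand, with each CpG in capitals. The first 4 belong to the starts whose regions ranked highest in the library where they ranked lowest, and the next has the most CpGs among starts inside regions.
Gm40850, chr12:18134388-18134687, minus strand: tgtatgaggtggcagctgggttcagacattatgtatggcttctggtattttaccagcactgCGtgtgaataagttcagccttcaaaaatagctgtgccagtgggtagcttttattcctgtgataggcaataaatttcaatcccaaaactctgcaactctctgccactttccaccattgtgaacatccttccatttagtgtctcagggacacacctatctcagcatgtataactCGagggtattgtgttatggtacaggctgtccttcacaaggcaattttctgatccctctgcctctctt
Gm30313, chr9:26549629-26549928, minus strand: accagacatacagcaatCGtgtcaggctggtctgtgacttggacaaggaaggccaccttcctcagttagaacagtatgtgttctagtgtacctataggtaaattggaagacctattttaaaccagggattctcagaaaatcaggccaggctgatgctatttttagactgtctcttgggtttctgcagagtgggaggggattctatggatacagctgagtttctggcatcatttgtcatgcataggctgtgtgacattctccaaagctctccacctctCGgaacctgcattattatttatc
Gm39467, chr11:113134183-113134482, minus strand: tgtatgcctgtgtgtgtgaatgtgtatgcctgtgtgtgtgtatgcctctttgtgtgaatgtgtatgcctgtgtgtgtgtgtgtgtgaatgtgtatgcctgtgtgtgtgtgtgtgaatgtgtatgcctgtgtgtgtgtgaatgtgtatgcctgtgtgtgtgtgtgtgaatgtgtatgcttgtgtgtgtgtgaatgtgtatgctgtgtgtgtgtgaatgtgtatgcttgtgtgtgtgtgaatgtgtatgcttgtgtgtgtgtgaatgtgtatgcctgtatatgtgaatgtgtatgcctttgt
Gm42040, chr8:107778947-107779246, plus strand: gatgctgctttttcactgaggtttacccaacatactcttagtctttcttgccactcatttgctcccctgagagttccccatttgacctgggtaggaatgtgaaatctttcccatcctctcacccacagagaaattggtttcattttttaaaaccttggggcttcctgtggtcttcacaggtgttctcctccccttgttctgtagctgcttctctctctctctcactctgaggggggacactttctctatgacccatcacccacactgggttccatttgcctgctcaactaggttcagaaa
Tunar, chr12:105336743-105337042, plus strand: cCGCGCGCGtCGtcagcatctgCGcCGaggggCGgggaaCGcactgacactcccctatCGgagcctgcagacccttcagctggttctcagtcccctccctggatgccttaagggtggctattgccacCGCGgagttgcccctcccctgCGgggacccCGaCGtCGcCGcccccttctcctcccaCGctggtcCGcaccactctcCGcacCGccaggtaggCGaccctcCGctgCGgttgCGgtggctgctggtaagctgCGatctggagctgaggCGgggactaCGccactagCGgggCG
For contrast, the start with the most CpGs among desert starts in no called region:
9530059O14Rik, chr9:122572251-122572550, plus strand: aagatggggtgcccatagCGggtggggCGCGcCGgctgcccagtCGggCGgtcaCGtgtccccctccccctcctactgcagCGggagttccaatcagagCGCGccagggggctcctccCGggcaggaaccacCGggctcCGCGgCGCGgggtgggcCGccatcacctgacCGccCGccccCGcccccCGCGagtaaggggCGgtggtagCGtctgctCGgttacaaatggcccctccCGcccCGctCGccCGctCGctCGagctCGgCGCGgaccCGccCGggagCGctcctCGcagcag

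The first 4 windows held few CpGs. Gm40850 and Gm30313 had 2 each, and Gm39467 and Gm42040 had none. The Gm39467 window is mostly TG repeat. Its region (chromosome 11, 113133794 to 113134940) had peak scores of 642 and 513 in KO and 568 and 555 in flox, where the score is the authors' -10 times the log10 of the p-value and depends on unknown depth. The region at Gm40850 (chromosome 12, 18133329 to 18134532) scored 1035 and 916 in KO and 983 and 959 in flox. A window holds a start that lies inside a region, but can run past the region's edge, as that of Gm40850 does, and CpGs elsewhere in a region were not counted. Tunar, a lncRNA gene known from neural cells, had 30 CpGs in the window, and its region had lower scores, 205 and 225 in KO and 140 and 187 in flox. The CpG-rich start of 9530059O14Rik, with 38 CpGs, lay in no called region.

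Over the 116 starts inside constant desert regions the median was 3.5 CpGs per window and 49.8% G or C. The 1796 desert starts in no called region had a median of 3 CpGs and 44.3% G or C, and the 104 starts in desert regions called in some libraries had 3 and 46.7%. Motifs of blood transcription factors were counted in the windows on both strands. The RUNX motif TGTGGT, bound by the AML1 part of AML1-ETO, was in 20.7% of the windows of starts inside constant regions, parts of which can lie outside them, and in 20.1% of all 2016 desert windows. The ETS motif GGAAGT was in 25.9% and 21.8%, the E-box CAGCTG in 18.97% and 15.5%, the GATA motif AGATAA in 10.3% and 17.96%, and the C/EBP motif TTGCNNAA in 6.90% and 15.2%. The AP-1 motif TGANTCA stood at 5.17% and 10.4%, the CTCF core CCCTC at 63.8% and 50.05%, and a run of 6 CA units at 2.59% and 1.29%. With 116 windows each share rests on few sequences, from 3 with the CA repeat to 74 with the CTCF core, and these letters are a description, not binding sites.

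Mature microRNAs overlapped 3 constant desert regions. RefSeq lists 100 microRNA hairpins in deserts, and constant desert regions cover 2.70% of desert sequence. Whether the overlap differs from what this cover alone would give was not tested. The mature microRNAs are printed with the seed, bases 2 to 8, in capitals, and no seed is shared.
mmu-miR-6372, chr11:26202258-26202280, plus strand: aGAACUGGggaaacuuccagccu
mmu-miR-466j, chr10:60960802-60960824, plus strand: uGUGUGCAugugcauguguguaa
mmu-miR-12179-5p, chr1:177579511-177579529, minus strand: uCUCUGUCcuccaguucug
The region at mmu-miR-6372 (chromosome 11, 26201064 to 26202562), 185 kb from Fancl, was among the stronger ones, with scores of 726 and 903 in KO and 932 and 686 in flox. All 4 values lay above the 99th percentile of their own list, the lowest at 99.2. The region at mmu-miR-466j (chromosome 10, 60959883 to 60961550) scored 115 and 153 in KO and 145 and 102 in flox. The region at mmu-miR-12179-5p (chromosome 1, 177579083 to 177581081) scored 90.4 and 102 in KO and 67.7 and 132 in flox, and had 1954 and 1481 bp called in KO against 789 and 671 bp in flox. It returns below among the regions with the smallest p.

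Constant regions were sparser in deserts than at any other place. Deserts made up 657 Mb, or 27.35% of the autosomal sequence from 3 Mb onward, and held 21.3% of the constant regions under 2500 bp. That is 21.6 constant regions per Mb in deserts, against 33.4 per Mb in intergenic sequence up to 100 kb from genes, 27.3 in gene bodies and 30 within 1 kb of gene ends. Within deserts the density fell with distance, with 27.7 per Mb at 100 to 200 kb from the nearest gene end, 22.1 at 200 to 500 kb, 15.8 at 0.5 to 1 Mb and 12.9 beyond 1 Mb. At 100 to 200 kb it was thus about that of gene bodies. These are counts over the genome, without a test.

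Desert regions were also called less often in every library. Of 40629 merged desert regions, 35.45% were called in all 4 lists and 28.9% in 1 list alone, against 41.9% and 25.55% in intergenic sequence near genes and 40.35% and 27.3% in gene bodies. The share called in all lists was 39.5% at 100 to 200 kb, 35.6% at 200 to 500 kb, 30.65% at 0.5 to 1 Mb and 27.0% beyond 1 Mb. In each library alone, 52.3% to 56.6% of desert peaks lay in regions called in all lists, against 60.5% to 62.7% of peaks 1 to 100 kb from genes, and KO replicate 2 had the lowest share at both places. Every autosome held such regions, from 233 on chromosome 19 to 1190 on chromosome 1, at 18.1 per Mb of desert on chromosome 14 to 25.9 on chromosome 13.

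**Figure D1:**
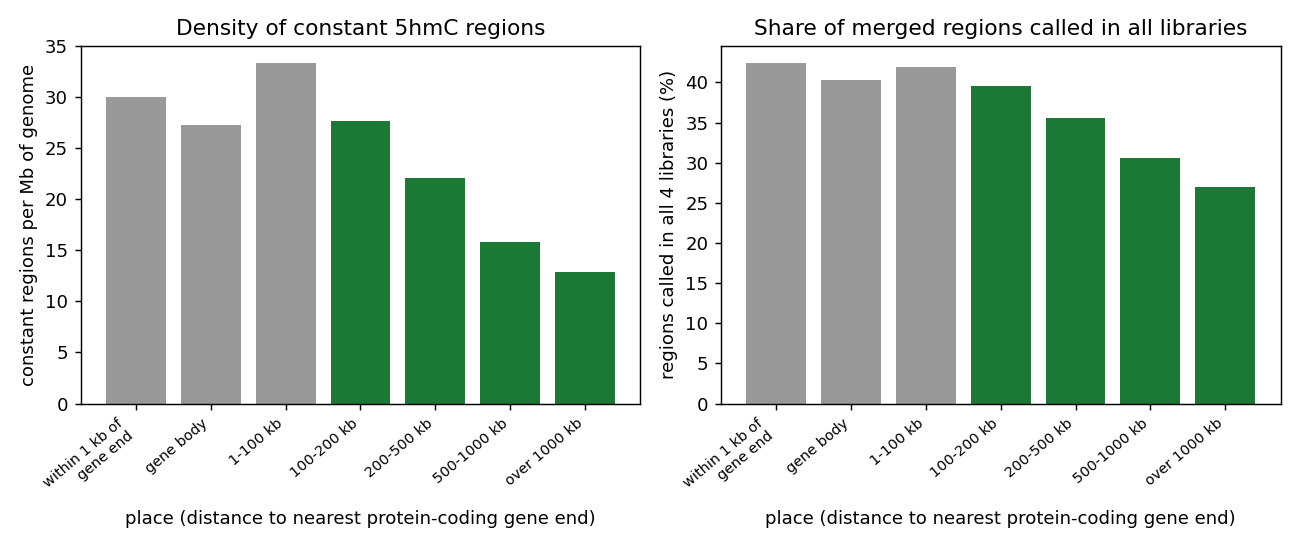
Left, constant 5hmC regions under 2500 bp per Mb of autosomal genome by place. Right, share of all merged regions called in all 4 libraries (%). Green bars are deserts by distance to the nearest gene end, grey bars other places. Both values fall across the 4 desert bins, to 12.9 per Mb and 27.0% beyond 1 Mb.

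Desert regions were narrower and lower ranked than constant regions elsewhere, in each of the 4 libraries. The median called length, the bases under peaks in 1 library, was 930 and 902 bp in KO and 923 and 898 bp in flox. Constant regions 1 to 100 kb from genes had 995 and 961 bp in KO and 1005 and 970 bp in flox. The difference, desert minus near intergenic, averaged -69.5 bp (SD 9.88, n = 4 libraries, two-sided exact sign-flip permutation p = 0.125, the smallest that 4 libraries allow). Against gene bodies it was -68.75 bp (SD 10.2) and against gene ends -129 bp (SD 19.9), each lower in 4 of 4 libraries with the same exact p of 0.125. With this p none of the 3 differences can pass a threshold of 0.05.

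The authors' scores showed the same order. Of the peaks in desert regions, 33.9% and 35.65% in KO and 33.75% and 33.1% in flox fell in the highest score quartile of their own list. Near intergenic regions had 39.5% and 40.5% in KO and 39.9% and 39.1% in flox. The difference was -5.65 percentage points (SD 0.572), against -6.62 (SD 0.802) from gene bodies and -12.1 (SD 1.68) from gene ends, lower in 4 of 4 libraries each (exact sign-flip permutation p = 0.125 each). Within deserts the share in the highest quartile was 36.2% to 39.3% over the 4 libraries at 100 to 200 kb and 19.9% to 26.4% beyond 1 Mb. In all 4 lists at once, 2263 desert regions (16.0%) lay in the highest quartile, 871 (6.15%) at or above the 90th percentile and 71 (0.501%) in the lowest quartile.

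**Figure D2:**
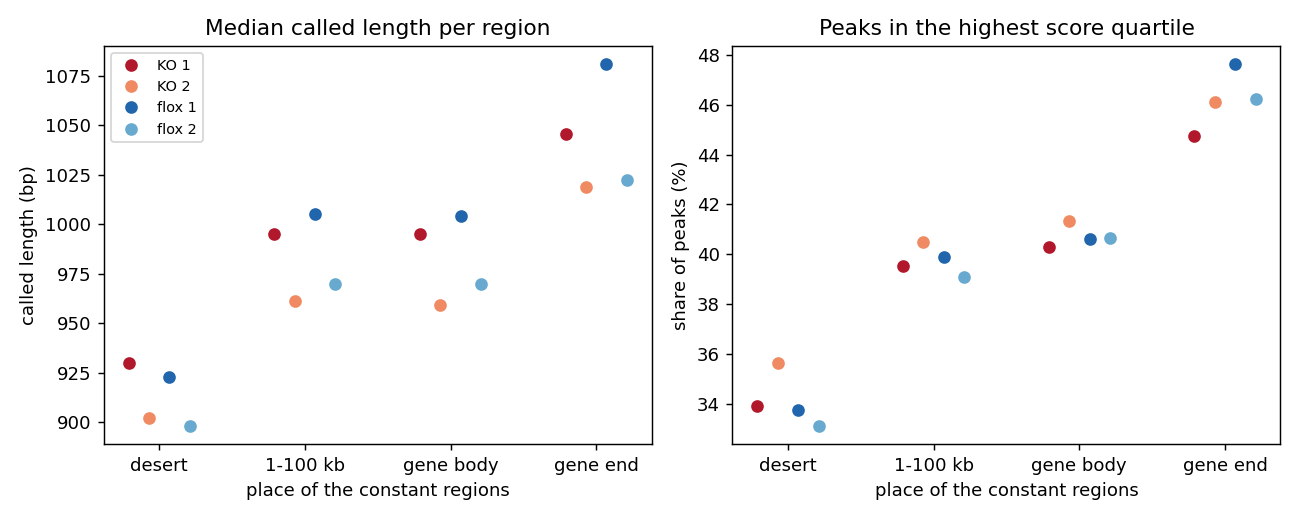
Left, median called length per constant region (bp) and, right, share of its peaks in the highest score quartile of the library's list (%), by place, with 1 point per library (KO red and orange, flox blues). Neither axis starts at 0. The 4 desert points, at 898 to 930 bp and 33.1% to 35.65%, lie below every point of the other places.

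By the rule each region holds a peak of every library, and the positions of these peaks were compared. The bases called in all 4 libraries had a median length of 643 bp per desert region, 56.0% of the merged width, and 37 regions (0.261%) held no base common to all. In 13593 regions (95.9%) each library had exactly 1 peak. Peak centres lay a median of 90 bp apart between the KO libraries, 87.75 bp between the flox libraries, and 88.0 to 91.5 bp in the 4 pairs of 1 KO and 1 flox library. Shared bases made up 0.723 of all called bases in the KO pair, 0.726 in the flox pair and 0.723 to 0.726 across genotypes. Rank correlations of scores over the 14172 regions were 0.591 in the KO pair, 0.586 in the flox pair and 0.571 to 0.598 across genotypes, and those of called length 0.505, 0.512 and 0.501 to 0.516. The flox pair had the smallest centre distance, while a mixed pair had the highest rank correlation of scores. The regions were chosen as called in all lists and under 2500 bp wide, which bounds the centre distances and raises the agreement in every pair.

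Constant desert regions were unevenly spread over the 1394 gaps between protein-coding genes that hold desert sequence. At least 1 lay in 1196 gaps, and 111 gaps with at least 30 regions each held 4781 of them. The median spacing within a gap was 24180 bp (quartiles 9396 and 55660 bp), and 26.15% of spacings were under 10 kb. Wide deserts were sparser, with 28.8 regions per Mb in gaps with 0.1 to 0.5 Mb of desert, 24.8 at 0.5 to 1 Mb, 18.2 at 1 to 2 Mb and 14.7 above 2 Mb. None of the 185 gaps with at least 1 Mb of desert was empty.

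Density was ranked among gaps with at least 10 regions. The densest of these lay on chromosome 5 between Med13l and Tbx3 (118765439 to 119670533). Med13l is a gene of the Mediator kinase module and Tbx3 a T-box transcription factor gene. This gap held 100 regions in 0.705 Mb of desert, or 142 per Mb, the most by number as well. Next on that chromosome was the gap between Mn1, a transcriptional coregulator gene that is a fusion partner in human leukaemia, and the lens crystallin gene Cryba4 (111457031 to 112246491), with 72 regions at 122 per Mb. On chromosome 8, 18 regions lay at 132 per Mb between the corepressor gene Irf2bp2 and Tomm20 (126593987 to 126930663), and 15 at 117 per Mb between Irf8, a transcription factor gene of monocytes and dendritic cells, and Foxf1 (120756695 to 121084385). Both deserts are short, at 0.137 and 0.128 Mb.

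By number, the gap between the RNA-binding protein gene Celf4 and the lipid kinase gene Pik3c3 on chromosome 18 was second with 80 regions, but at 18.6 per Mb over 4.31 Mb. The gap from Auts2 to Castor2 on chromosome 5 held 76 regions at 56.0 per Mb, that from Cntnap5b to the cadherin gene Cdh20 on chromosome 1 held 71 at 17.4 per Mb, and that from Cdh26 to 4930591A17Rik on chromosome 2 held 65 at 89.3 per Mb. Among the sparser gaps with at least 1 Mb of desert, chosen after their values were seen, were Grin3a to Cylc2 (chromosome 4, 10 regions at 8.54 per Mb), Rgs18 to Brinp3 (chromosome 1, 13 at 8.55 per Mb) and Adam6a to Zfp386 (chromosome 12, 20 at 8.69 per Mb). In RefSeq the gap from Adam6a to Zfp386 holds 184 immunoglobulin variable segments, which are not counted as protein-coding genes, so it is a desert only by the rule.

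**Figure D3:**
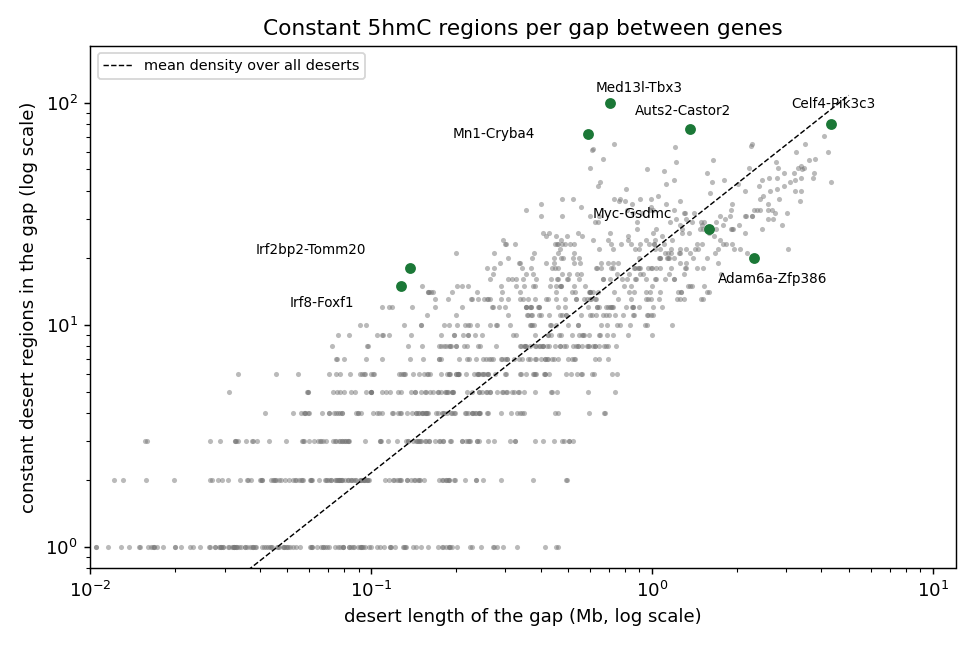
Each point is a gap between protein-coding genes, with its desert length (Mb, log scale) and its number of constant desert regions (log scale). Green points are gaps named in the text, and the dashed line is 21.6 regions per Mb. Gaps with no region, and 9 gaps with a region but under 10 kb of desert, are not drawn. Med13l-Tbx3 and Mn1-Cryba4 stand above the line and Adam6a-Zfp386 below it.

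By nearest gene, deserts of transcription factor genes were denser than those of adhesion genes. Developmental transcription factor genes were nearest to 614 regions over 19.4 Mb of desert, or 31.65 per Mb, and 52 of the 57 genes with desert had at least 1, against 1876 of 2361 over all genes with desert. Of these, Tbx3 had 55 regions (156 per Mb), the stem cell and neural factor gene Sox2 33 (52.0 per Mb) and Sall3 30 (49.8 per Mb). Blood regulator genes were nearest to 327 regions over 12.01 Mb, or 27.2 per Mb, in 26 of 27 genes with desert. Among them were Zeb2, a zinc finger repressor of myeloid and lymphoid development, with 39 (22.3 per Mb), the T cell factor gene Gata3 with 37 (32.7 per Mb) and Bcl11b, another T cell factor gene, with 25 (83.6 per Mb).

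Genes of cell adhesion and axon guidance had 1048 regions, but over 72.9 Mb of desert, or 14.4 per Mb, in 57 of 61 genes. Flrt2 had 52 (21.6 per Mb), and the protocadherin genes Pcdh17 and Pcdh7 had 48 and 44 (15.6 and 12.8 per Mb). Receptor and channel genes of nerve cells had 275 over 15.4 Mb, or 17.8 per Mb, in 39 of 45 genes, with 33 at the galanin receptor gene Galr1, which shares a gap with Sall3, 28 at the glutamate receptor gene Grik2 and 22 at Trps1, which encodes a zinc finger factor and not a channel. Over all members the density was 21.6 per Mb. Adhesion genes thus held 11.1% of desert length and 7.40% of the regions, and developmental transcription factor genes 2.95% of length and 4.33% of the regions. Wide deserts were sparser, and the part of desert width in these densities was not tested.

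Near the gene whose product forms part of AML1-ETO, Runx1, 16 regions had it as nearest gene (57.4 per Mb). The highest ranked of them (chromosome 16, 92954072 to 92955921, 129 kb from Runx1) had scores of 790 and 532 in KO and 591 and 629 in flox. Its called length was 1401 and 1743 bp in KO and 1400 and 1527 bp in flox, so the groups overlapped (log2 difference 0.11, SE 0.21, limma adjusted p = 0.988). The highest ranked region nearest to Irf8 (chromosome 8, 120905537 to 120907389, 150 kb away) had scores of 1008 and 1010 in KO and 923 and 876 in flox, with a called length of 1426 and 1243 bp in KO and 1475 and 1753 bp in flox (log2 difference -0.26, SE 0.20, adjusted p = 0.966). These single regions were chosen after their values were seen.

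The desert that follows Myc, an oncogene with distant blood enhancers in the mouse, was not dense. The gap from Myc to Gsdmc on chromosome 15 (61990362 to 63775970) held 27 regions at 17.0 per Mb, and the gap before Myc 16 at 18.5 per Mb. Its best ranked region (63193095 to 63194048) had scores of 334 and 240 in KO and 404 and 215 in flox and a called length of 763 and 789 bp in KO and 666 and 897 bp in flox. Another, at 62474779 to 62475981, scored 293 and 210 in KO and 408 and 219 in flox. Pvt1, the lncRNA gene beside Myc (62037986 to 62260215), spanned 1 region.

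Some deserts are transcribed into lncRNAs, and 1910 regions (13.5%) had their midpoint inside a lncRNA gene, against 10.8% of desert length. That is 27.0 regions per Mb inside and 20.9 per Mb outside lncRNA spans. The lncRNA genes with the most regions, chosen after their values were seen, were Gm30382 (chromosome 3, 149181187 to 149445599) with 18, 1700019L22Rik (chromosome 8) with 17, and 4930500H12Rik (chromosome 16), Gm32647 (chromosome 7) and Mir100hg (chromosome 9) with 15 each. Mir100hg, the host gene of microRNAs of the miR-100 and miR-125 families, spans 239 kb at 41376526 to 41615185, so its regions stood at 62.85 per Mb of the gene.

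The strongest desert regions were chosen by the lowest of their percentiles over the 4 lists, so a high rank in every library is part of the choice. First, with a lowest percentile of 99.95, was a region on chromosome 8 (112121560 to 112123436), 102 kb from Terf2ip, a telomere protein gene. Its scores were 1824 and 1528 in KO and 1472 and 1505 in flox, and its called length 1637 and 1796 bp in KO and 1825 and 1610 bp in flox. A region on chromosome 16 (69198943 to 69200718), 657 kb from any gene between Cadm2 and Speer2, scored 1342 and 1302 in KO and 1390 and 1218 in flox. One on chromosome 9 (112980869 to 112982112), 670 kb from Pdcd6ip, scored 1307 and 1281 in KO and 1343 and 1272 in flox. Next came regions near Tmem132c (chromosome 5), 1810013L24Rik (chromosome 16) and Maip1 (chromosome 1), with lowest percentiles of 99.9, 99.89 and 99.88. Limma log2 differences of called length of these 6 ran from -0.04 to 0.23, and no adjusted p was under 0.968.

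The weakest members were barely called somewhere. The region on chromosome 11 at 44205765 to 44207170, 194 kb from the interleukin 12 subunit gene Il12b, had scores of 52.65 and 134 in KO and 173 and 50 in flox, the last at the lowest score of any list. Regions near Cdh10 (chromosome 15), Cblb (chromosome 16) and Ddx18 (chromosome 1) scored 50 in flox replicate 1 and 54.6 to 116 in KO. The scores of KO and flox overlapped in each of the 4 regions. Called length did not overlap near Cblb, with 1329 and 711 bp in KO against 551 and 565 bp in flox (log2 difference 0.82, SE 0.36, limma adjusted p = 0.964). No base of the region near Cblb was called in all 4 libraries, so these lengths come from peaks that are partly at different positions.

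Farthest from any gene were 3 regions in the desert between the protocadherin genes Pcdh20 and Pcdh9 on chromosome 14. The first (90739906 to 90740900), 2269007 bp from Pcdh20, scored 103 and 54.2 in KO and 89.4 and 92.0 in flox. The third (90712235 to 90713311) had 161 and 162 in KO and 163 and 253 in flox, with a called length of 1048 bp in both KO libraries and 1039 and 942 bp in flox. The fourth lay between Celf4 and Pik3c3 on chromosome 18 (27938413 to 27939366), 2184 kb from Celf4, with 201 and 260 in KO and 177 and 127 in flox.

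The comparison of KO and flox asks whether constant desert regions changed in extent when Tet2 was lost. No region did by the test. Members are called in every library by the rule, so regions lost or gained as a whole in KO are outside this comparison. The width limit of 2500 bp also bounds the differences it can show. Limma over all 171780 merged autosomal regions, on log2(bp + 500), had 0 past an adjusted p of 0.05 as well. Called length, after scaling all libraries to a common sum, was fitted as log2 KO minus flox with limma over all 68363 constant autosomal regions, 0 of which passed a Benjamini-Hochberg adjusted p of 0.05 (0% of those tested, smallest adjusted p = 0.555), and so 0 of the 14172 desert regions. At an unadjusted p under 0.05 limma had 391 desert regions wider in KO (2.76%, against 2.46% of all tested) and 250 narrower (1.76%, against 2.55%). Both KO libraries were wider than both flox libraries in 2648 desert regions (18.7%, against 17.3% of all) and narrower in 2133 (15.05%, against 16.6%). The members' shares lay above the background for wider regions and below it for narrower ones by both counts. That background includes the members, the difference was not tested, and no result about the members is drawn from it. Without scaling, 348 members were wider and 265 narrower in KO at an unadjusted limma p under 0.05.

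Over the members the median log2 difference was 0.023, with 90% of values between -0.50 and 0.56, and 53.1% of them were above 0, against a median of 0.0036 and 50.5% over all regions tested. The members' median was 0.00752 without scaling and 0.0149 without KO replicate 2, so its size rests on both. By distance, with scaling and all libraries, the median was 0.020 at 100 to 200 kb, 0.017 at 200 to 500 kb, 0.035 at 0.5 to 1 Mb and 0.048 beyond 1 Mb. Constant regions 1 to 100 kb from genes stood at 0.0043 and those in gene bodies at -0.0047. Desert regions held 20.1% and 20.2% of the called bases of all constant regions under 2500 bp in KO, against 19.87% and 19.9% in flox, a mean of 20.2% ± 0.069 in KO and 19.9% ± 0.054 in flox (SD, n = 2 each). The exact two-sided permutation p of 0.333 is the smallest that 2 against 2 allows. Both KO libraries lay above both flox libraries, by 0.272 percentage points on average.

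**Figure D4:**
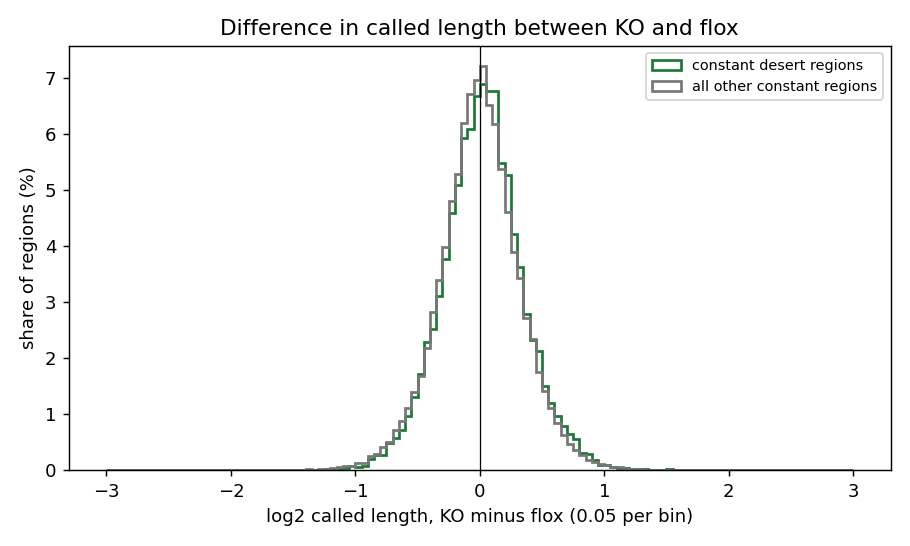
Share of regions (%) by log2 called length, KO minus flox, in bins of 0.05, for the 14172 constant desert regions (green) and all other constant regions (grey). Both curves centre near 0, with a median of 0.023 for desert regions.

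Of the regions with the smallest p, 4 wider and 5 narrower in KO are given. None of the 9 passed limma's test over all regions (adjusted p from 0.555 to 0.964). Between Spopl and Hnmt on chromosome 2 (23734708 to 23736911), 2100 and 2117 bp were called in KO against 904 and 641 bp in flox (log2 difference 1.49, SE 0.23, adjusted p = 0.555). Its scores overlapped, at 130 and 53.2 in KO and 58.7 and 65.4 in flox, where 50 is the lowest of any list. With only the widest peak per library its log2 difference was 1.06. Between Iqcm and Nr3c2, the mineralocorticoid receptor gene, on chromosome 8 (76505881 to 76507485), 1595 and 1470 bp were called in KO against 570 and 655 bp in flox (1.34, SE 0.25). The third is the region at mmu-miR-12179-5p shown above (1.24, SE 0.24), near Zbtb18, a zinc finger repressor gene. The fourth lay between Sorcs3 and Sorcs1 (chromosome 19), with 1215 and 1296 bp in KO against 472 and 412 bp in flox (1.52, SE 0.30).

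In the other direction, 402 and 363 bp were called in KO against 882 and 983 bp in flox between Nox3 and Arid1b on chromosome 17 (4123102 to 4124219, log2 difference -1.27, SE 0.27). A region 2068 kb from Cntnap5b on chromosome 1 (102557250 to 102559080) had 666 and 850 bp in KO against 1634 and 1617 bp in flox (-1.10, SE 0.24). The region near Slc30a10 on chromosome 1 (185673434 to 185675281), a manganese transporter gene, had 783 and 970 bp in KO against 1729 and 1740 bp in flox (-0.98, SE 0.22), while its scores of 455 and 465 in KO and 467 and 411 in flox overlapped. Regions beside Ralyl (chromosome 3, -0.98) and Adgrb1 (chromosome 15, -0.88) complete the set. At each of the 9 the KO and flox values were apart, as the rule that chose them requires.

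**Figure D5:**
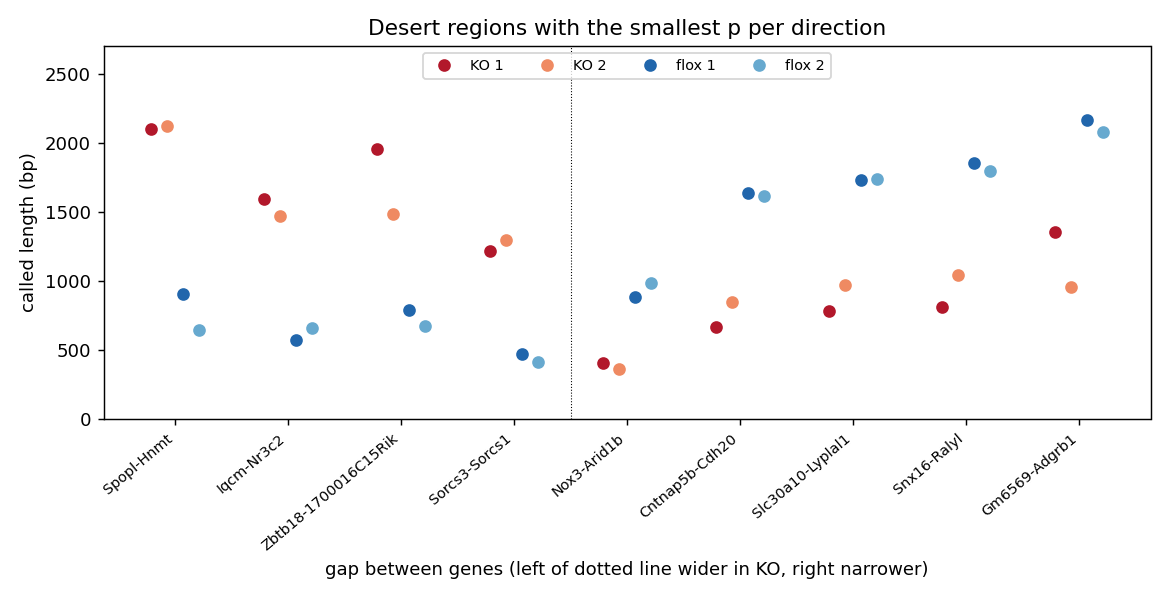
Called length (bp) in each library (KO red and orange, flox blues) of 4 desert regions wider and 5 narrower in KO, those with the smallest limma p among regions where the groups do not overlap, named by the genes on either side. None passed the test over all regions.

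Summed over whole gaps, called length gave no gap that passed the test either. Among the 777 gaps with at least 5 constant desert regions, limma on the summed called length had 0 gaps past an adjusted p of 0.05 (0% of those tested, smallest adjusted p = 0.827). At an unadjusted p under 0.05 it had 21 longer and 21 shorter in KO (2.7% each). Gap sums were scaled to their own common total, not to that of all constant regions. A shift shared by desert regions is thus removed, and log2 differences of gaps and single regions are not on the same scale. The median log2 difference over gaps was -0.00498 with this scaling and 0.00187 without it. The smallest p belonged to the gap between the homeobox gene Emx2 and Rab11fip2 on chromosome 19, with 13583 and 13806 bp in KO against 11692 and 10814 bp in flox over 13 regions (log2 difference 0.28, SE 0.081). Between the cadherin genes Cdh7 and Cdh19 on chromosome 1 it was 7308 and 6827 bp in KO against 4594 and 6173 bp in flox (0.40, SE 0.14), and without flox replicate 2 this gap alone passed limma's test (0.63, adjusted p = 0.013, against 0.704 to 0.948 in the other settings). That fit leaves flox with 1 library, the one with 4594 bp, which is assumed to vary like the KO pair. The gap from Ankrd7 to the potassium channel gene Kcnd2 on chromosome 6 stood at 0.15 (SE 0.056).

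Shorter in KO were the gaps from Nox3 to Arid1b (chromosome 17, 47999 and 46400 bp in KO against 52670 and 50892 bp in flox, log2 difference -0.14, SE 0.043), from Spring1 to Med13l (chromosome 5, -0.27, SE 0.085) and from Csmd1 to Mcph1 (chromosome 8, -0.20, SE 0.067), each with an adjusted p of 0.827. The densest gap with at least 10 regions, from Med13l to Tbx3, had 112662 and 111391 bp in KO and 118024 and 109831 bp in flox (-0.03, SE 0.034, adjusted p = 0.914). From Mn1 to Cryba4 it was 83335 and 85197 bp in KO and 84143 and 87434 bp in flox (-0.03, SE 0.041). Irf8 to Foxf1 had 18142 and 17634 bp in KO and 18561 and 18605 bp in flox (-0.06, SE 0.067), and Myc to Gsdmc 26355 and 26272 bp in KO and 24827 and 26430 bp in flox (0.03, SE 0.061). These standard errors are small beside those of the 9 single regions above, 0.21 to 0.30.

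The limits of the rule cut through continuous values. The 2 widest members were 2497 bp wide (near Zfp637 on chromosome 6 and Rpl38 on chromosome 11), while regions of 2500 bp near Mn1 and 2501 bp near Reep3 fell outside, as did 230 constant desert regions in all. Members 100011 bp from Kcnk2 and 100017 bp from Gpc5 were inside the distance limit, and regions 99992 bp from St8sia3 and 99989 bp from Ptbp2 outside it. The region near Kcnk2 scored 180 and 148 in KO and 186 and 142 in flox, and the one near Ptbp2 73.7 and 83.0 in KO and 102 and 133 in flox.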

How the data were processed

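The authors deposited 1 peak list per 5hmC library, with start and end in bp, a score and a p-value for each peak. Per the submitters' processing notes, CASAVA 1.8, Bowtie, MACS 1.4 and GRCm38 (mm10) were used, without roles or order. Caller settings, control library and duplicate handling were not given in the sources used here. Whole-list inspection showed that each deposited score equalled -10 log10 of its deposited p-value within 0.02 for all peaks, with 50 as the lowest. Both were used only to rank or describe peaks within a list. The IgG control and the input of the 6 samples were not analysed here.

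Peaks were merged at 1 bp of overlap and placed by RefSeq spans of 20665 autosomal protein-coding genes (GRCm38.p6). Of these, 105 are listed before 3 Mb, where at most 1 peak of a list starts, and leaving them out kept the number of members at 14172. Coordinates count from 1. Percentiles are mid-ranks within a whole list. Groups came from sample titles. Limma 3.58.1 (R 4.3.3, trend and robust) was fitted on log2 called bp, scaled to the same total and with no pseudocount or filter, since every constant region has called bases in every library. The region and gap fits were each scaled to their own total. Limma was tested on simulated data. Place values were compared over libraries by exact permutation tests. Python 3.11.15, numpy 2.4.6, pandas 2.3.3, scipy 1.17.1 and matplotlib 3.10.9 were used.

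Members and gene lists were chosen with earlier results of these data known. Named were the 6 highest and 4 lowest ranked members, the 5 per direction with the smallest p where groups do not overlap, the 4 farthest from genes, the 6 gaps with most members, the 4 densest with at least 10, the 3 per direction with the smallest p, and up to 3 genes per list. Sequence windows follow RefSeq. A region and a gap that these rules or the sparse gaps would name are not reported here. The planned sequence analysis of whole regions needs a genome and was not run. Alternatives were other scaling, pseudocount, score, overlap, distance and width rules, leaving out each library, and a replicate block.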

Additional observations from a re-analysis of the deposited data

How the results depend on the processing

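The number of constant desert regions was 4847 with peaks scored 100 or more and 4296 with the 50000 highest scored peaks of each list, against 14172. It was 14267 when merging needed 200 bp of overlap, 13392 when peaks up to 500 bp apart were merged, and 15643 to 16201 when a library was left out and the 3 others had to call the region. Limma called no desert region under any alternative run. Summed per gap it called 1 gap without flox replicate 2 (Cdh7 to Cdh19) and 0 under every other setting, so the range over libraries left out was 0 to 1. The members' median log2 difference, 0.023, was 0.00752 unscaled, 0.0147 as log2(bp + 500), 0.0142 over all autosomal merged regions on that scale, and 0.0149 to 0.0269 with a library left out. Members wider in KO at an unadjusted p under 0.05 numbered 128 and narrower 82 with peaks scored 100 or more, where fewer regions were tested, and 234 and 152 over all autosomal merged regions. For these the cause was not tested. With a library left out they were 286 to 391 wider and 228 to 270 narrower. With the replicate number as a block limma called 0 regions (399 wider and 259 narrower members at an unadjusted p under 0.05) and 0 gaps. The smallest adjusted p of that limma fit was 0.148 over all regions and 0.262 over the members, against 0.555 for both without the block. The replicate differences of KO and flox correlated at -0.00509 over the members. This correlation cannot decide whether samples of the same number share a culture, and the labels do not say. The differences in length and score rank between deserts and other places, and the difference in called share, kept their direction under every alternative run. Depth is unknown, so weak peaks may be missed in any list.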

Other observations

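The gap that holds the immunoglobulin heavy chain variable segments, Adam6a to Zfp386, had 8.69 constant regions per Mb, against 14.7 per Mb over all gaps with more than 2 Mb of desert. Grin3a to Cylc2 and Rgs18 to Brinp3, named above among the sparser gaps, hold no such segments. Whether the low density goes with the segments was not tested.

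A constant desert region can rank high with few CpGs at the transcript start inside it. The TG-repeat window at Gm39467, with no CpG, lies in a region whose lowest percentile over the 4 lists was 98.3, while the window at Tunar with 30 CpGs lies in a region at 73.4. Gm39467 was chosen for the rank of its region and Tunar for its CpGs, so this contrast is partly built in. How rank and CpG number relate over all such starts was not tested. Of the 116 starts inside constant desert regions, 6.90% had no CpG in the window, against 11.8% of starts in no called region.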
